A study of Mus musculus with 12 samples.

Results

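The 6 genes described here are the platelet-derived growth factor receptors Pdgfra and Pdgfrb, the PDGF chains Pdgfa, Pdgfb and Pdgfc, and Kit, the receptor gene that lies next to Pdgfra on chromosome 5. They were chosen by name, matched to 6 Ensembl identifiers in a table of estimated counts for 52661 genes, and all 6 passed the filter on low counts that kept 21053 genes. Values come from 12 RNA-seq libraries of CGR8, a mouse embryonic stem cell (ESC) line kept in serum with leukemia inhibitory factor (LIF). All cells carried the ppy-cagg-ires-puro vector by stable transfection, and the 4 groups of 3 libraries differed in its insert: none (control), netrin-1 (netrin-1 WT), or netrin-1 with a mutation named for 1 of 2 receptors, Unc5b (unc5B MUT) or neogenin (neo1 MUT). The labels do not say whether a transfected line was 1 clone or a pool, or whether its 3 libraries stem from separate cultures, so p-values measure only the spread between these libraries.

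PDGF chains are secreted as dimers and bind receptor tyrosine kinases at the cell surface, which dimerise, phosphorylate each other and recruit the Ras-MAPK, PI3-kinase and phospholipase C pathways. PDGFRα binds the A, B and C chains, PDGFRβ binds the B chain, and KIT, which has the same receptor architecture, binds the separate ligand Kitl. In the mouse blastocyst PDGFRα marks the primitive endoderm, the layer next to the pluripotent epiblast, and serum/LIF ESC cultures are known to hold a minority of cells with endoderm features. In later embryos and adults the PDGF receptors are known from fibroblasts, pericytes and oligodendrocyte precursors, and KIT from germ cells, melanocytes and blood progenitors.

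Pdgfra (ENSMUSG00000029231) spans chr5:75152292-75198215 on the plus strand of GRCm38, and Kit (ENSMUSG00000005672) spans chr5:75574916-75656722 on the same strand. The 376.7 kb between them hold 0 annotated protein-coding genes and 5 other annotated genes. The sequences before the start sites of these neighbours are shown because the pair turned out to differ between groups in opposite directions. They are RefSeq windows on GRCm38.p6, chr5:75152001-75152250 for Pdgfra and chr5:75574737-75574915 for Kit, both on the plus strand, 5′ to 3′, with each CpG in capitals.
Pdgfra: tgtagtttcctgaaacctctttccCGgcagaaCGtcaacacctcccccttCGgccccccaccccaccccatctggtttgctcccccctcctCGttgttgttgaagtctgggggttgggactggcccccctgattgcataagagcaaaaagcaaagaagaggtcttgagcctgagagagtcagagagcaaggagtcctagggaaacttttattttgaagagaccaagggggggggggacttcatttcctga
Kit: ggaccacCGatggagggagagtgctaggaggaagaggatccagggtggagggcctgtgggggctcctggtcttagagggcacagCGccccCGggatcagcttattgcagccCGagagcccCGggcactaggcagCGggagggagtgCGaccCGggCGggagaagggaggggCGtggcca
Over the 250 bases before the RefSeq start, the Pdgfra window held 4 CpG and 54.4% G+C, and 44.42% of the 32851 RefSeq windows of that length held as few CpG or fewer. The Kit window, the first by position of 2 for that gene, held 17 CpG and 70.8% G+C, with 78.33% of windows at or below that CpG count. Only its first 179 bases, which end before the Kit start given above, are printed. On both strands, the GATA-type motif AGATAA, the GC box GGGCGG and the TATA-type motif TATAAA had no match in the Pdgfra window. The Kit window had 1 match, a GGGCGG starting 98 bases before the RefSeq start, not the gene start given above. Those motifs occur in 9.99%, 32.7% and 12.4% of all windows, respectively. These letters describe the windows only.

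Summed estimated counts per library ranged from 22256195 to 59735737. The 4 libraries numbered 3 stood apart from the other 8 on the first principal component (70.15% of the variance), and libraries of 1 number deviated together from their group means. Each comparison was therefore fitted in 2 ways: by group alone, which is the primary test, and with the replicate number added as a block, called the paired fit. Levels are CPM, counts scaled by the library size, with the SD over n = 3 libraries. Ntn1, the gene encoding netrin-1, was at 0.78 to 15.4 CPM in the control libraries and at 34.9 to 322 CPM in the 9 others, each above the control library of its number. All 12 pluripotency markers passed the filter (Pou5f1 at 1261 ± 163 CPM in control, SD, n = 3), and their summed level was 2753 to 4319 CPM over the 12 libraries. The bulk values cannot tell fewer cells of a type from less RNA per cell.

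Pdgfra was about 6 times lower in cells with netrin-1 WT or neo1 MUT than in control cells, and its level in unc5B MUT cells overlapped the control level. It was at 65.5, 47.5 and 51.8 CPM in control libraries 1, 2 and 3. In netrin-1 WT it was at 8.64, 7.93 and 11.97 CPM, and in neo1 MUT at 14.0, 7.19 and 6.61 CPM. In unc5B MUT it was at 61.1, 32.0 and 39.0 CPM. Every netrin-1 WT and neo1 MUT library therefore lay below every control and unc5B MUT library, with no value between 14.0 and 32.0 CPM. Group means were 54.9 ± 9.40 CPM (SD, n = 3) in control, 44.0 ± 15.2 in unc5B MUT, 9.51 ± 2.16 in netrin-1 WT and 9.28 ± 4.13 in neo1 MUT.

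**Figure D1:**
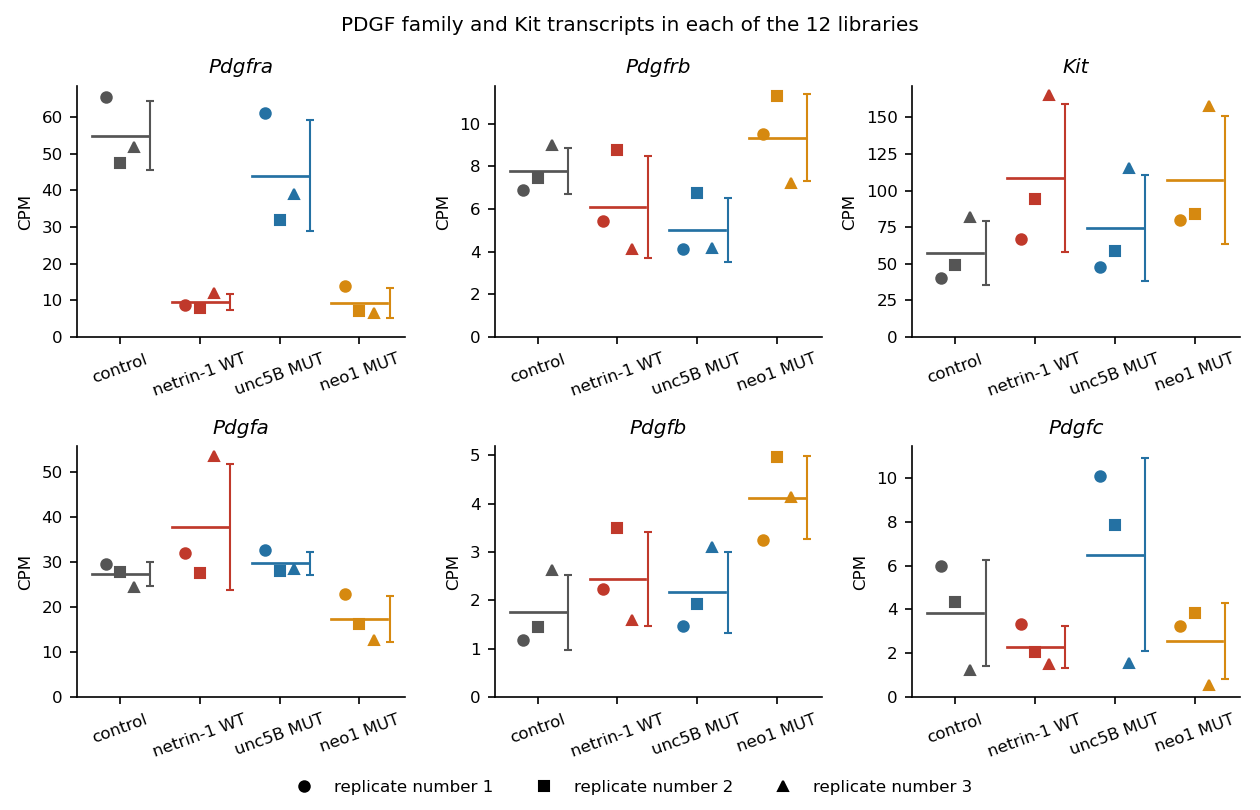
Level of each of the 6 genes in CPM (y axis, from 0 in each panel) in the 12 libraries by group (x axis), with points for single libraries, marked by replicate number, and bars for the group mean. Pdgfra lies at 6.61 to 14.0 CPM for netrin-1 WT with neo1 MUT, and at 32.0 to 65.5 CPM for control with unc5B MUT, and Kit is highest in the libraries numbered 3.

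In the edgeR quasi-likelihood test with Benjamini-Hochberg adjustment over all 21053 genes, Pdgfra fell by 2.53 on the log2 scale in netrin-1 WT against control (SE 0.362, adjusted p = 0.0375) and by 2.56 in neo1 MUT against control (adjusted p = 0.0311). In unc5B MUT against control its log2 fold change was -0.32 (adjusted p = 1), and the paired fit gave -0.36 with a 95% confidence interval of -0.85 to 0.14. Its within-number differences there were -0.099, -0.57 and -0.41, lower in all 3 numbers. Pdgfra was higher in unc5B MUT than in netrin-1 WT by 2.21 on the log2 scale, which did not pass without pairing (adjusted p = 0.179) and passed in the paired fit (2.16, SE 0.238, adjusted p = 0.00229). Between neo1 MUT and unc5B MUT the log2 fold change was -2.24 without pairing (adjusted p = 0.0524) and -2.25 in the paired fit (adjusted p = 0.00102). Between neo1 MUT and netrin-1 WT it was -0.03 (adjusted p = 1), with a paired interval of -0.61 to 0.43. The call in netrin-1 WT against control without pairing was lost when any 1 of its 6 libraries was left out (adjusted p = 0.0797 to 0.26), and that in neo1 MUT against control when any control library, neo1 MUT 2 or neo1 MUT 3 was left out (adjusted p = 0.0885 to 0.194). Both held in all 9 paired settings, with log2 fold changes of -2.80 to -2.24 and -2.84 to -2.41.

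Against these calls, 0.0997% of the tested genes passed in netrin-1 WT against control without pairing and 3.5% in the paired fit. For neo1 MUT against control the shares were 0.128% and 5.26%, and for unc5B MUT against control 0% and 0.0285%. They were 0% and 1.97% for unc5B MUT against netrin-1 WT, 0.076% and 1.99% for neo1 MUT against netrin-1 WT, and 0.133% and 4.87% for neo1 MUT against unc5B MUT. Pdgfra was the single family member that passed without pairing, in 2 of the 6 comparisons. In the paired fit Pdgfra and Kit passed in 4 comparisons each, and the other 4 genes in none. The comparisons with control share its 3 libraries, so their values for a gene are not independent of each other. For unc5B MUT against control and against netrin-1 WT, edgeR without pairing gave 0 calls over all genes; 238 and 1059 genes had an unadjusted p under 0.05, with 11 and 167 calls by DESeq2 and 0 by limma-voom.

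Kit, the receptor for stem cell factor, moved the other way in the paired fit and in the same groups. It was at 40.1, 49.5 and 81.7 CPM in control, 67.1, 94.1 and 165 CPM in netrin-1 WT, 80.0, 84.0 and 157.9 CPM in neo1 MUT, and 48.1, 59.0 and 115.5 CPM in unc5B MUT libraries 1, 2 and 3. The library numbered 3 was the highest of each group, so the groups overlapped, but within each number both netrin-1 WT and neo1 MUT exceeded unc5B MUT, and unc5B MUT exceeded control. Group means were 57.1 ± 21.8 CPM (SD, n = 3) in control, 74.2 ± 36.2 in unc5B MUT, 109 ± 50.6 in netrin-1 WT and 107 ± 43.9 in neo1 MUT. Kit passed in 0 comparisons without pairing.

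In the paired edgeR fit Kit rose by 0.90 on the log2 scale in netrin-1 WT against control (SE 0.108, adjusted p = 0.00164), with within-number differences of 0.74, 0.93 and 1.01. Against control it also rose in neo1 MUT, by 0.91 (SE 0.108, adjusted p = 0.00173), with within-number differences of 0.997, 0.76 and 0.95. Both calls held in all 9 paired settings. In unc5B MUT against control the paired log2 fold change was 0.34 (95% interval 0.10 to 0.58, adjusted p = 0.82), although all 3 numbers showed that direction. Kit was lower in unc5B MUT than in netrin-1 WT by a paired log2 fold change of -0.56 (adjusted p = 0.03) and higher in neo1 MUT than in unc5B MUT by 0.57 (adjusted p = 0.0174). In the authors' deposited table these were -0.56 (adjusted p = 0.0504) and 0.58 (adjusted p = 0.0317). The first difference lost its paired call without netrin-1 WT 1 or 2 or any unc5B MUT library (adjusted p = 0.0713 to 0.212), and the second without unc5B MUT 1 or 2 or neo1 MUT 1 or 3 (adjusted p = 0.0542 to 0.131).

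Kit had the higher mean level per exon length in every group, and the size of the gap differed between groups. The ratio of Kit to Pdgfra in CPM per kb of exon was 0.689, 1.17 and 1.77 in the control libraries and 0.885, 2.07 and 3.34 in unc5B MUT. It was 8.75, 13.4 and 15.5 in netrin-1 WT and 6.41, 13.1 and 26.9 in neo1 MUT, so the lowest ratio of these 6 libraries exceeded the highest of the other 6. No test was run on the ratio, which restates the values above.

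**Figure D2:**
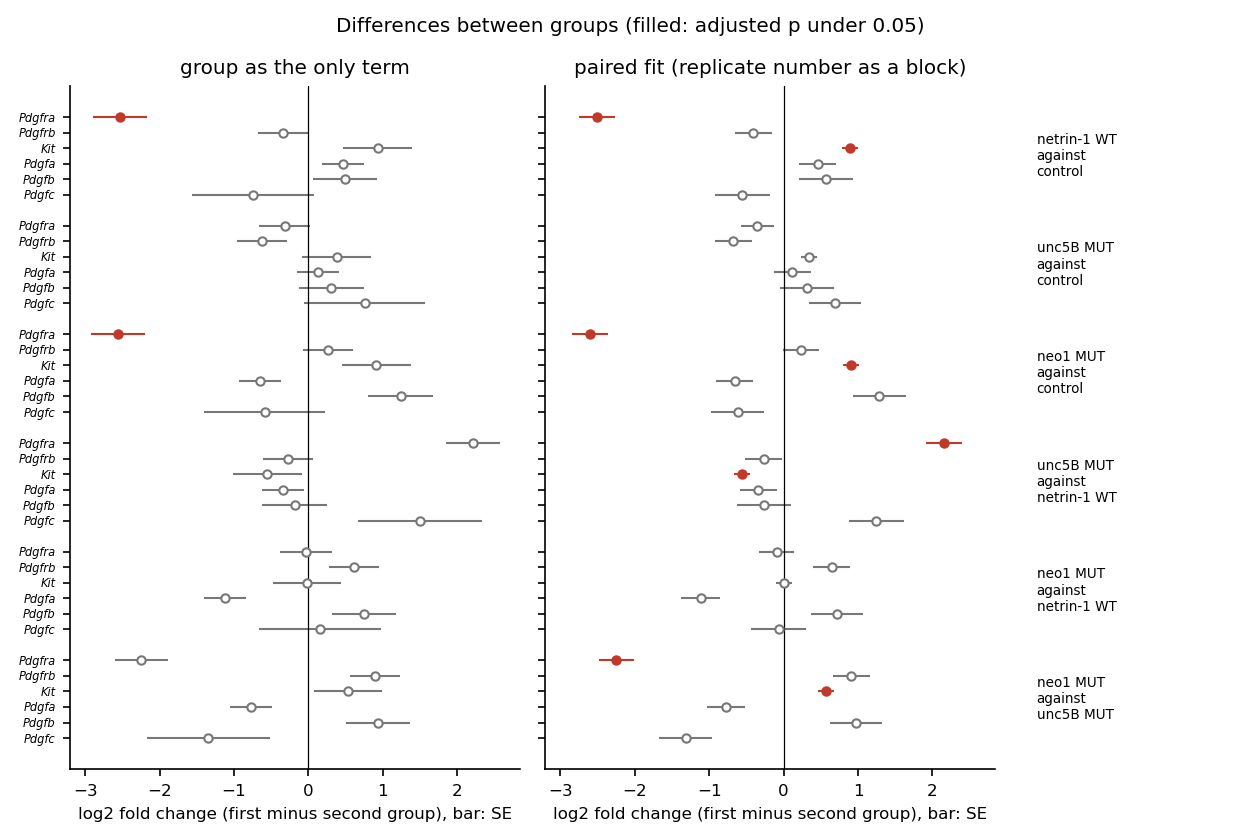
Log2 fold change (x axis, bar: SE) of the 6 genes in each of the 6 comparisons, by group alone and in the paired fit, with filled points where the adjusted p was under 0.05. Pdgfra is filled in 2 comparisons without pairing and 4 with it, Kit in 0 and 4.

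Pdgfrb (ENSMUSG00000024620, chr18:61045150-61085061), the receptor for the B chain, was low in all groups and passed in 0 comparisons in either fit. It was at 6.91, 7.44 and 8.99 CPM in control, 5.44, 8.78 and 4.12 with netrin-1 WT, 4.15, 6.77 and 4.18 with unc5B MUT, and 9.51, 11.3 and 7.24 with neo1 MUT. The neo1 MUT and control ranges overlapped, and each neo1 MUT library was above the unc5B MUT library of its number. That difference was the nearest to the threshold, with a paired log2 fold change of 0.91 (95% interval 0.37 to 1.46, adjusted p = 0.0615). Per kb of exon, Pdgfra was 3.15 to 5.18 times Pdgfrb in control and 2.59 to 8.05 times in unc5B MUT, against 0.494 to 1.59 times in netrin-1 WT and 0.348 to 0.807 times in neo1 MUT.

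Among the ligands, Pdgfa (ENSMUSG00000025856, chr5:138976014-138997370, minus strand), which encodes the A chain, was the most abundant per exon length in every group. Its mean was 8.73 CPM per kb in control, 12.09 for netrin-1 WT, 9.50 for unc5B MUT and 5.56 for neo1 MUT. In CPM it was 29.6, 27.7 and 24.4 in control and 32.6, 27.9 and 28.5 in unc5B MUT. In netrin-1 WT it was 31.9, 27.6 and 53.5, where library 3 stood above the others, and in neo1 MUT it was 23.0, 16.3 and 12.8, each below every control library. The paired log2 fold change of neo1 MUT against control was -0.66 (adjusted p = 0.167), and that of neo1 MUT against netrin-1 WT was -1.12 (95% interval -1.68 to -0.55, adjusted p = 0.0548).

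Pdgfb (ENSMUSG00000000489, chr15:79995874-80014977, minus strand), the B chain and a ligand of both PDGF receptors, had the lowest or next to lowest level per exon length in control, netrin-1 WT and unc5B MUT. It was at 1.17, 1.46 and 2.62 CPM in control, 2.24, 3.50 and 1.60 with netrin-1 WT, 1.48, 1.92 and 3.10 with unc5B MUT, and 3.25, 4.97 and 4.14 with neo1 MUT. All 3 neo1 MUT libraries were above all control and unc5B MUT libraries, with a paired log2 fold change against control of 1.29 (95% interval 0.50 to 2.08, adjusted p = 0.068). In the authors' deposited table this was 1.35 (adjusted p = 0.0458).

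Pdgfc (ENSMUSG00000028019, chr3:81036416-81214040, plus strand), whose product must be cleaved by a protease before it binds, differed widely between the replicate numbers. It was at 5.997, 4.33 and 1.23 CPM in control, 3.35, 2.04 and 1.502 with netrin-1 WT, 10.1, 7.84 and 1.58 with unc5B MUT, and 3.27, 3.82 and 0.577 with neo1 MUT, so library 3 was the lowest of each group. Within each number unc5B MUT was above control and neo1 MUT below it, and the paired log2 fold change of neo1 MUT against unc5B MUT was -1.31 (95% interval -2.10 to -0.53, adjusted p = 0.0614). Over 451 chromosome 3 genes above 10 CPM, the paired median against control was 0.19 in unc5B MUT, -0.0057 in netrin-1 WT and 0.029 in neo1 MUT. Its part in the Pdgfc values was not tested. The authors' deposited table gives -1.36 for that comparison (adjusted p = 0.0313) and 1.51 for unc5B MUT against netrin-1 WT (adjusted p = 0.0296), where the paired fit gave 1.25 (adjusted p = 0.113).

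Without the 4 libraries numbered 3, a setting added after the data were seen, the paired fit on 8 libraries called 4 of the 6 genes in netrin-1 WT against control (16.3% of all tested genes), 4 in neo1 MUT against control (10.5%), 3 in unc5B MUT against netrin-1 WT (13.4%) and all 6 in neo1 MUT against unc5B MUT (10%). It called 0 of the 6 in unc5B MUT against control (0.0754% of all genes) and 0 in neo1 MUT against netrin-1 WT (2.95%). Where all 6 passed, Pdgfra, Pdgfa and Pdgfc were lower in neo1 MUT and Pdgfrb, Kit and Pdgfb higher.

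Ordered by mean CPM per kb of exon, control cells ran Pdgfa (8.73 ± 0.854, SD, n = 3), Kit (6.41 ± 2.45), Pdgfra (5.48 ± 0.938), Pdgfrb (1.42 ± 0.198), Pdgfc (0.757 ± 0.476) and Pdgfb (0.421 ± 0.185). The library ranges of Kit overlapped those of Pdgfa and of Pdgfra, and those of Pdgfc overlapped Pdgfb's, while no Pdgfrb library reached a Pdgfra library. The unc5B MUT order was Pdgfa (9.50 ± 0.823), Kit (8.33 ± 4.06), Pdgfra (4.39 ± 1.52), Pdgfc (1.28 ± 0.868), Pdgfrb (0.919 ± 0.275) and Pdgfb (0.520 ± 0.201), where Kit again overlapped Pdgfa and Pdgfra, and Pdgfc overlapped Pdgfrb and Pdgfb. In netrin-1 WT the order was Kit (12.2), Pdgfa (12.09), Pdgfrb (1.12), Pdgfra (0.949), Pdgfb (0.588) and Pdgfc (0.451), with Kit overlapping Pdgfa, and Pdgfra overlapping Pdgfrb and Pdgfb. In neo1 MUT it was Kit (12.04), Pdgfa (5.56), Pdgfrb (1.71), Pdgfb (0.990), Pdgfra (0.926) and Pdgfc (0.502), and Pdgfra overlapped the other 3 low genes. Pdgfra was thus among the 3 highest genes in control and unc5B MUT and at or below the level of Pdgfrb in most netrin-1 WT and all neo1 MUT libraries.

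Calls among the remaining genes of the receptor family and its pathway, all from the paired fit, stand against 3.5% of all genes in netrin-1 WT against control, 5.26% in neo1 MUT against control and 0.0285% in unc5B MUT against control. Without pairing, which is the primary test, 0 genes of these family and pathway lists passed in any comparison. Of 15 relatives of the PDGF, KIT and VEGF receptors and their ligands, 12 were tested and Pdgfd, Csf1r and Flt3 were under the filter, none above 0.305 CPM in any library. In the paired fit none of the 12 passed in netrin-1 WT or unc5B MUT against control, and the list medians were 0.36 and 0.12 on the log2 scale, against 0.01 and 0.02 over all genes. Flt4, a VEGF receptor, rose by 0.93 in neo1 MUT against control (SE 0.184, adjusted p = 0.0181) and was higher in neo1 MUT than in unc5B MUT by 0.77 (adjusted p = 0.0397). Il34, a ligand of the relative Csf1r, was lower in neo1 MUT than in netrin-1 WT (-2.36, adjusted p = 0.0208) and than in unc5B MUT (-1.85, adjusted p = 0.034). Kitl, the KIT ligand, was at 1.14 ± 0.67 CPM in control and 2.57 ± 1.27 in netrin-1 WT (SD, n = 3) and passed in 0 comparisons.

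Of 9 ligand-processing proteases and co-receptors, 8 were tested, and in the paired fit 2 were higher and 1 lower in netrin-1 WT against control, 3 of 8 where 3.5% of all genes passed. Nrp2, a co-receptor for VEGF and semaphorins, rose by 1.76 (8.91 ± 1.96 to 31.0 ± 10.7 CPM, SD, n = 3, adjusted p = 0.00681), and St14, the protease matriptase, by 0.93 (adjusted p = 0.0264). Sparc, a matrix protein that binds PDGF, fell by 1.58 (adjusted p = 0.0013). Sparc is also among the 20 primitive endoderm markers below, so its calls are counted in both lists. Nrp2 in neo1 MUT against control rose by 1.48 (adjusted p = 0.0141) and Sparc fell by 1.82 (adjusted p = 0.000706). None of the 8 passed in unc5B MUT against control, or in any comparison without pairing. Relative to netrin-1 WT, unc5B MUT cells had more Sparc (1.31, adjusted p = 0.00835) and less St14 (-0.92, adjusted p = 0.0399), and relative to unc5B MUT, neo1 MUT cells had less Sparc (-1.54, adjusted p = 0.00192).

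Of the 32 tested genes of intracellular signalling, 1 was higher and 2 lower in netrin-1 WT against control in the paired fit, and the list median was -0.00012 (0.01 over all genes). Pik3ca, the catalytic PI3-kinase subunit, rose by 1.07 (adjusted p = 0.00653), while Braf and Nras fell by 0.60 and 0.55 (adjusted p = 0.0221 and 0.0246). Braf was the 1 of 32 that passed in neo1 MUT against control and fell by 0.68 (adjusted p = 0.0112). Of 16 genes listed as related to restraint of receptor signalling, Spry2 fell in netrin-1 WT (by 0.56, adjusted p = 0.0384). Of the 16, 3 fell in neo1 MUT against control: the cytokine-signal suppressor Socs1 by 1.69 (adjusted p = 0.00287), the receptor phosphatase Ptprj by 0.99 (adjusted p = 0.0128) and Spry2 by 0.72 (adjusted p = 0.0115). Of 13 immediate early genes, which growth factor signals induce, 11 were tested, none passed in netrin-1 WT, and Nr4a1 fell in neo1 MUT (by 0.87, adjusted p = 0.0253). In unc5B MUT against control 0 genes of these 3 lists passed, and 0 passed in any comparison without pairing. Between the netrin-1 groups, Nras was higher in unc5B MUT than in netrin-1 WT (0.75, adjusted p = 0.0104), and Ptprj was lower in neo1 MUT than in netrin-1 WT (-1.66, adjusted p = 0.00131). Neo1 MUT cells were lower than unc5B MUT cells in Socs1, Ptprj, Nr4a1, Spry2 and Nras (-1.61, -1.05, -1.02, -0.61 and -0.49, adjusted p = 0.00429 to 0.0351) and higher in Stat5b (0.70, adjusted p = 0.0335).

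Primitive endoderm markers moved with Pdgfra. All 20 were tested, and without pairing 6 fell in netrin-1 WT against control, 3 in neo1 MUT against control and 0 in unc5B MUT against control. Over all genes 0.0997%, 0.128% and 0% passed. In the paired fit the counts were 16, 17 and 0, where 3.5%, 5.26% and 0.0285% of all genes passed. The list medians were -2.23, -1.89 and -0.54 on the log2 scale against 0.01, 0.02 and 0.02 over all genes. Also in the paired fit, 13 were higher in unc5B MUT against netrin-1 WT, where 1.97% of all genes passed. In neo1 MUT against unc5B MUT 16 were lower, where 4.87% passed. Without pairing 0 of the 20 passed in either comparison, against 0% and 0.133% of all genes. In netrin-1 WT against control the endocytic receptor Cubn fell by 3.91 (adjusted p = 0.000396) and the adaptor Dab2 fell by 3.83 (adjusted p = 0.00164). The proteoglycan Srgn fell by 3.37 (adjusted p = 0.00142). In neo1 MUT against control Dab2 fell by 3.18, Cubn by 3.14, Sox17 by 3.09 and Foxa2 by 2.83 (adjusted p = 0.00391, 0.000846, 0.000706 and 0.0125). The summed level of the 20 markers was 2856 to 5745 CPM in control, 2128 to 4482 in unc5B MUT, 1451 to 2212 in netrin-1 WT and 1278 to 1706 in neo1 MUT, and none of the 20 was at 0 in all libraries. The part of these markers in the Pdgfra difference was not tested.

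Markers of other cell types, several of them known for PDGF receptors or KIT, were read against the same shares of all genes, 3.5% in netrin-1 WT and 5.26% in neo1 MUT against control. Of 15 fibroblast and pericyte markers 9 were tested, with a summed level of 17.0 to 46.6 CPM over the 12 libraries, and Col3a1, Dcn, Lum, Postn, Cspg4 and Rgs5 were under the filter, none above 0.533 CPM in any library. In the paired fit 1 of the 9, Des, fell in netrin-1 WT (by 0.69, adjusted p = 0.0317) and 1, Thy1, in neo1 MUT (-1.303, adjusted p = 0.0253). Between the netrin-1 groups, Des was higher in neo1 MUT than in netrin-1 WT (1.14, adjusted p = 0.00404) and than in unc5B MUT (0.58, adjusted p = 0.0497). Twist1 was lower in neo1 MUT than in both (-1.81 and -1.80, adjusted p = 0.0411 and 0.0262), and Thy1 was lower than in unc5B MUT (-1.43, adjusted p = 0.0196). Of 8 germ cell markers Tfap2c rose in netrin-1 WT (0.96, adjusted p = 0.0384), and in neo1 MUT Dazl fell by 1.29 and Prdm1 rose by 0.75 (adjusted p = 0.0378 and 0.0459). Of 9 blood and endothelial markers 7 were tested, and 1, Runx1, fell in both groups (by 2.27 and 1.79, adjusted p = 0.00784 and 0.0175). Of 10 mesoderm markers 9 were tested and 0 passed in any comparison with control. Of 12 pluripotency markers Dppa3 and Sox2 rose in netrin-1 WT (2.24 and 0.75, adjusted p = 0.00784 and 0.0144) and Tbx3 fell in neo1 MUT (by 1.09, adjusted p = 0.0238). Between the netrin-1 groups, Dppa3 was lower in both mutants than in netrin-1 WT (-2.32 in unc5B MUT and -2.50 in neo1 MUT, adjusted p = 0.0116 and 0.00583), Runx1 was higher in unc5B MUT than in netrin-1 WT (1.74, adjusted p = 0.0376), Dazl was lower in neo1 MUT than in netrin-1 WT (-1.46, adjusted p = 0.0404) and unc5B MUT (-1.34, adjusted p = 0.0356), and Tbx3 was lower in neo1 MUT than in unc5B MUT (-1.07, adjusted p = 0.0278). None of these lists had a called gene in unc5B MUT against control, or in any comparison without pairing.

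Of 15 protein-coding neighbours of Pdgfra and Kit 14 were tested and Nmu was under the filter. Without pairing 0 of the 14 passed in any comparison. In the paired fit 1 of the 14 passed in netrin-1 WT against control (3.5% of all genes), 1 in neo1 MUT against control (5.26%) and 0 in unc5B MUT against control. The 1 was Pdcl2, a low gene 1160 kb beyond the Pdgfra start that rose from 0.815 ± 0.133 CPM in control to 2.53 ± 1.03 in netrin-1 WT and 2.41 ± 1.08 in neo1 MUT (SD, n = 3, adjusted p = 0.00871 and 0.0111). Its log2 fold change in unc5B MUT was 1.59 (adjusted p = 0.146). In netrin-1 WT against control, the paired log2 fold changes of Usp46, Rasl11b, Scfd2, Fip1l1, Chic2, Srd5a3, Tmem165, Clock, Exoc1 and Cep135 lay between -0.27 and 0.28. Gsx2, which is 77 kb before Pdgfra, and Lnx1 and Kdr were under 1 CPM in every group, and the largest value among them was 2.59 for Gsx2 (adjusted p = 0.0501). In neo1 MUT against control the same 10 genes lay between -0.62 and 0.41. Over the 28 genes above 10 CPM within 5 Mb of Pdgfra, the median log2 fold change against control was -0.05 for netrin-1 WT, 0.05 for unc5B MUT and -0.04 for neo1 MUT.

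**Figure D3:**
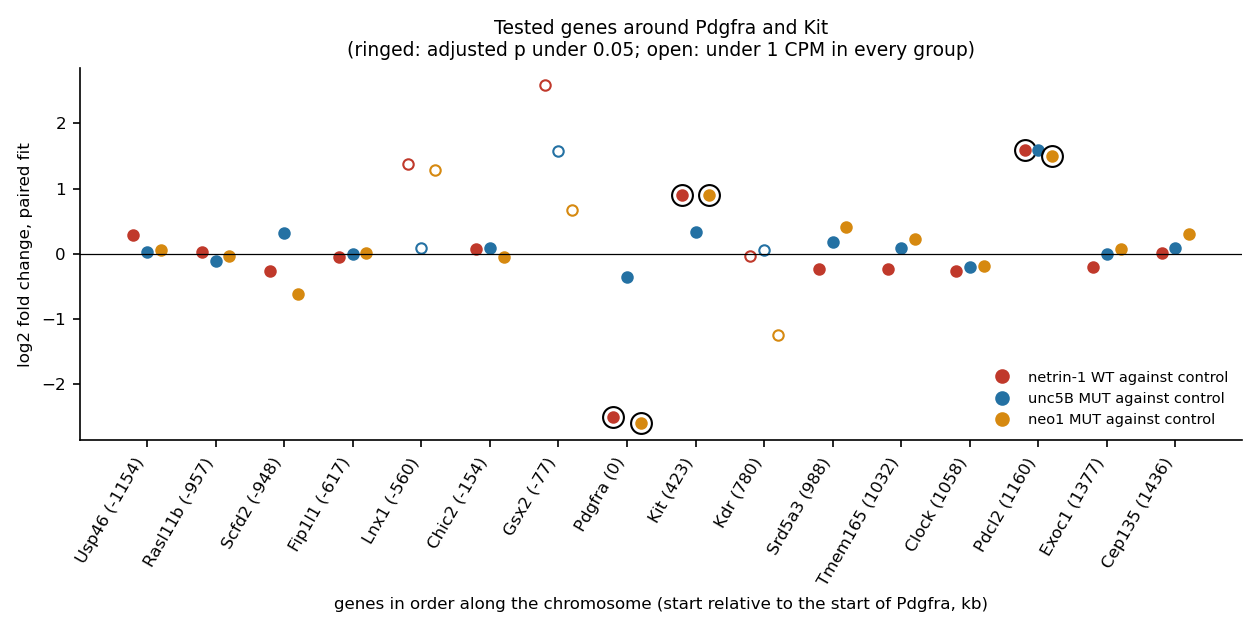
Paired log2 fold change against control (y axis) of Pdgfra, Kit and their tested protein-coding neighbours in chromosomal order (x axis, with the distance in kb from the Pdgfra start), for the 3 netrin-1 groups. Rings mark an adjusted p under 0.05 and open points genes under 1 CPM in every group; Pdgfra is ringed near -2.5, Kit near 0.9 and Pdcl2 near 1.5 in netrin-1 WT and neo1 MUT.

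The genes whose pattern over the 12 libraries was most like that of Pdgfra were found among 11103 genes by the Pearson correlation of log2 CPM after subtraction of each number's mean. They were Fbp2 (r = 0.991), Sparc (0.989), Gata6 (0.988), Scaf11 (0.986), Skp2 (0.985), Copz1 (0.984), Gpat3 (0.984), Serpinh1 (0.983), Emp2 (0.983) and Smdt1 (0.982). The correlations share libraries, depth and the split between 2 pairs of groups: control and unc5B MUT are high and the other 2 groups low, so r mostly describes that split. Within the 6 control and unc5B MUT libraries r was 0.823 for Gata6 and 0.077 for Smdt1, and within the 6 netrin-1 WT and neo1 MUT libraries 0.859 for both. Gata6, an endoderm transcription factor, was at 62.8, 13.3, 43.3 and 13.6 CPM on average in the control, wild-type netrin-1, unc5B MUT and neo1 MUT groups. Scaf11, Skp2, Copz1 and Smdt1 lie on chromosome 15, where the median of 400 genes above 10 CPM against control was -0.34 for netrin-1 WT, 0.04 for unc5B MUT and -0.44 for neo1 MUT.

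Of the other members, Kit ran against Pdgfra over all 12 libraries (r = -0.920 after subtraction, -0.629 without it). Within the control and unc5B MUT libraries r was -0.844, and within the netrin-1 WT and neo1 MUT libraries it was 0.731, so the opposite relation did not hold inside the low-Pdgfra groups. The values for Pdgfc, Pdgfa, Pdgfrb and Pdgfb over 12 libraries were 0.741, 0.303, -0.266 and -0.684.

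**Figure D4:**
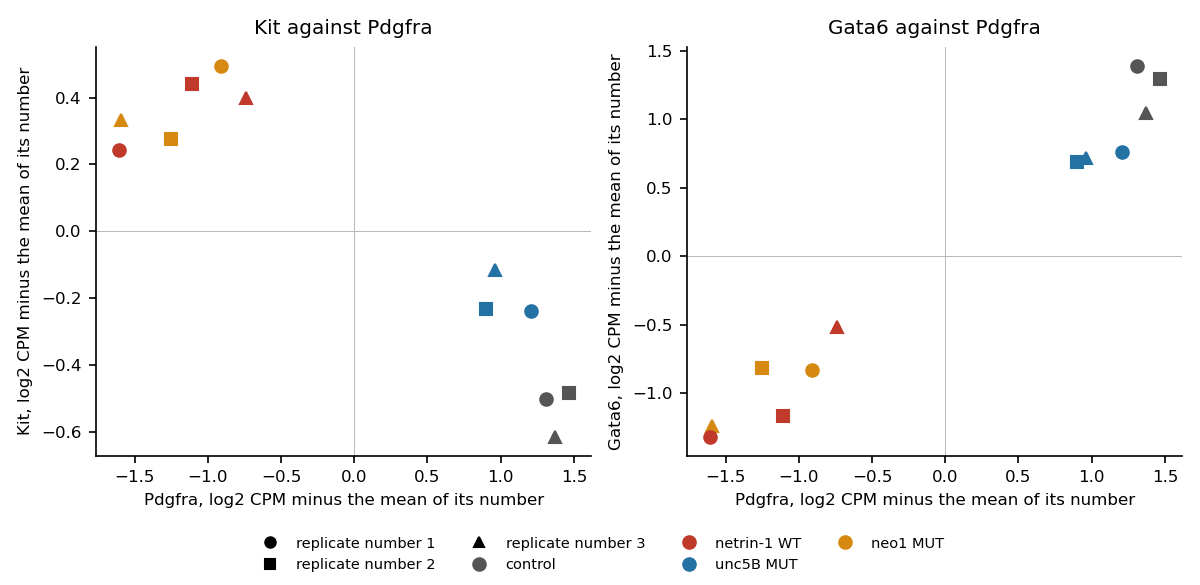
Kit and Gata6 (y axes) against Pdgfra (x axis) in the 12 libraries, each as log2 CPM minus the mean of the libraries with the same number, coloured by group. The netrin-1 WT and neo1 MUT libraries form 1 cluster and the control and unc5B MUT libraries another; Gata6 is low with Pdgfra (r = 0.988) and Kit is high where Pdgfra is low (r = -0.920).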

How the data were processed

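Total RNA of 12 CGR8 libraries (RNeasy columns, standard Illumina preparation, per the labels' protocols) was sequenced, and groups and numbers come from the sample titles. The authors deposited estimated counts for 52661 genes, which were rounded to whole numbers because the planned test needs counts. The submitters' processing notes name, without roles, STAR 2.5.2b, Bowtie, Bowtie2, FastQC 0.11.5, DESeq2 and R 3.3.2 and the builds GRCm38.p5, GRCh38 and mm10. No source used here gives the counting program or a strand setting, so overlapping genes may share reads. The authors' deposited table of comparisons gives log2 fold changes, fold scores, p-values and adjusted p-values, of which only log2 fold changes and adjusted p-values were used; its model is not given. The deposited normalized table on a log2-like scale was not used.

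Counts were fitted with edgeR 4.0.16 (limma 3.58.1, R 4.3.3): filterByExpr (21053 genes), TMM, quasi-likelihood F-test on all 12 libraries, Benjamini-Hochberg adjustment and a threshold of 0.05. CPM use TMM library sizes, log2 CPM a prior count of 2, and lengths are merged GENCODE M21 exons (52566 IDs matched). The paired fit adds the replicate number. Libraries of 1 number deviated together from their group means (r = 0.58 to 0.88 in 18 pairs, above the minimum of 0.1); r was 0.49 to 0.76 between numbers 1 and 2 and -0.83 to -0.60 between number 3 and another. The pairing is thus read from titles and values, since no label explains the numbers. No 2 libraries held identical values. An exact test of 3 against 3 libraries cannot go below 0.1, so none was run.

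The 6 genes, the 12 lists (171 genes) and the naming rule were chosen with earlier results of these data known, so no list is independent evidence. The rule names every member, up to 4 called genes of each list with the largest absolute change, all tested locus genes, and the 10 genes most like Pdgfra with at least 5 CPM. Genes of the lists beyond that rule (Kitl, Gata6 levels, Pou5f1) were named after their values were seen, and 1 gene that the rule names is not reported here. RefSeq windows (GRCm38.p6) matched Pdgfra, Kit, Pdgfa and Pdgfc. Alternatives were RLE size factors, other filters, DESeq2 1.42.0, limma-voom, 2-group fits and leaving out libraries.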

Additional observations from a re-analysis of the deposited data

Results flagged for a closer look

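In the paired fit, the effects of the 2 mutants, or of a mutant and netrin-1 WT, against the same control differed for Pdgfra and Kit. Without pairing, which is the primary edgeR test, 0 of these differences passed (Pdgfra adjusted p = 0.179 and 0.0524). For Pdgfc, and by a small margin for Pdgfa, the 2 mutants lay on opposite sides of control. In paired edgeR tests of the difference itself, Pdgfra was higher in unc5B MUT than in netrin-1 WT by 2.16 on the log2 scale (adjusted p = 0.00229, higher in 3 of 3 numbers) and differed by -2.25 between neo1 MUT and unc5B MUT (adjusted p = 0.00102, lower in 3 of 3 numbers). Kit differed by -0.56 between unc5B MUT and netrin-1 WT (adjusted p = 0.03) and by 0.57 between neo1 MUT and unc5B MUT (adjusted p = 0.0174), in 3 of 3 numbers each. The Kit calls held in 4 and 5 of the 9 paired settings. Pdgfa and Pdgfc were below control in every neo1 MUT library and above control in every unc5B MUT library of the same number. For Pdgfa in unc5B MUT the log2 differences from control were only 0.14, 0.0093 and 0.23 in numbers 1, 2 and 3. Paired log2 fold changes of unc5B MUT against control were 0.12 for Pdgfa (95% interval -0.43 to 0.67) and 0.69 for Pdgfc (-0.077 to 1.465). The differences of Pdgfa and Pdgfc between neo1 MUT and unc5B MUT, -0.78 and -1.31, did not pass in the paired fit (adjusted p = 0.108 and 0.0614).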

How the results depend on the processing

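The paired fit, which adds the replicate block, changed the calls of Pdgfra and Kit given in the report (Pdgfra 2.16 in unc5B MUT against netrin-1 WT and -2.25 in neo1 MUT against unc5B MUT, where 0 had passed) and no other member's call, so that 2 of the 6 genes passed in each of 4 comparisons. With RLE size factors in the paired fit the same 2 values were 2.15 and -2.23, again with 2 genes called in those 4 comparisons. In each of them 414 to 1112 of all 21053 genes passed. Pdgfra in neo1 MUT against unc5B MUT also passed with at least 1 CPM in 3 libraries (-2.23), in limma-voom (-2.24) and in DESeq2 (-2.24), each with 1 member called. Over all genes these settings called 31 of 16165, 28 of 21053 and 331 of 21275. DESeq2 also called 1 member in unc5B MUT against netrin-1 WT (Pdgfra, 2.21, with 167 of 19043 genes called) and 1 in neo1 MUT against netrin-1 WT (Pdgfa, with 221 of 20528). Fits of only the 2 groups compared, which have fewer libraries to estimate the spread, called 0 members, with Pdgfra at -2.54 in netrin-1 WT and -2.57 in neo1 MUT against control.

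Without the libraries numbered 3, unpaired, 2 members passed in netrin-1 WT against control and in unc5B MUT against netrin-1 WT (Pdgfra 2.49) and 1 in neo1 MUT against unc5B MUT (Pdgfra -2.13). In these 3 comparisons 895, 431 and 493 of all 21223 tested genes passed, against 21, 0 and 28 of 21053 in the main fit. Paired, 4, 4, 3 and 6 passed as in the report, with Pdgfra at 2.41 and -2.13. These directions turned, none of them for a called value. In neo1 MUT against netrin-1 WT these were Kit (0.0090 paired, 0.012 paired with RLE, 0.0080 in limma-voom, 0.019 and 0.039 without number 3), Pdgfc (-0.066, -0.058 and -0.040 in the first 3 of these settings) and Pdgfra (0.35 and 0.28 without number 3). Pdgfa in unc5B MUT against netrin-1 WT was 0.016 and 0.014 without number 3. The cause was not tested.

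Over all fits that left out 1 library, with and without the block, Pdgfra ranged from -2.80 to -2.24 in netrin-1 WT against control, -2.99 to -2.37 in neo1 MUT against control, 1.87 to 2.45 in unc5B MUT against netrin-1 WT, -0.46 to 0.19 in neo1 MUT against netrin-1 WT and -2.68 to -1.93 in neo1 MUT against unc5B MUT. Members called ranged from 0 to 3 in the first 3 of these and from 0 to 2 in the last. Calls over all genes ranged from 1 to 1861, 4 to 1111 and 0 to 1830 in those 3, and from 6 to 497 in the last. Between 21665 and 22106 genes were tested, and the low ends came without the block and the high ends with it. For unc5B MUT against control Kit ranged from -0.091 to 0.73 and Pdgfb from -0.036 to 0.71. For unc5B MUT against netrin-1 WT Pdgfrb ranged from -0.55 to 0.080, Pdgfa from -0.55 to 0.10 and Pdgfb from -0.65 to 0.17. For neo1 MUT against netrin-1 WT Kit ranged from -0.41 to 0.42 and Pdgfc from -0.46 to 0.62, and Pdgfrb in neo1 MUT against control from -0.0020 to 0.53.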
